A study of Mus musculus with 18 samples.

Results

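Mammary glands of female C57Bl/6 mice that had been exposed to a progestin and a carcinogen, but bore no tumor at the site sampled, were compared with mammary glands of unexposed mice. The members were the 6 arrays titled hyperplastic mammary gland and the 6 titled normal mammary gland, 12 of the 18 arrays in the series, and the other 6 arrays held mammary tumors. Hyperplastic glands came from mice that received, at an age of 6 to 9 weeks, a slow-release implant loaded with medroxyprogesterone acetate (MPA; 50 mg, spent over 90 days) and then swallowed 7,12-dimethylbenz[a]anthracene (DMBA; 5 mg/mL, 200 uL a dose) in 6 doses between weeks 1 and 7 (together M/D). Normal glands came from M/D-naïve females of the same strain, whose own age the labels do not give, so that age and exposure cannot be told apart. The tumors, which arose in mice given the same M/D course, measured 0.7 to 1 cm2. All groups were C57Bl/6, with no engineered allele named in the labels, and each array received 200 ng of total RNA from whole tissue. The labels do not say that each array is a separate mouse, so the spread behind every p-value is that of these arrays and may in part be technical. In whole tissue, fewer cells of a type and less RNA per cell cannot be told apart.

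MPA is a synthetic progestin that also binds the glucocorticoid receptor. In the mammary gland progesterone acts on luminal cells that carry its receptor, and those cells pass the signal on to their neighbours through secreted factors such as RANK ligand, which drives side branching and alveolar growth. DMBA is a polycyclic hydrocarbon that cells convert into metabolites that bind DNA. The gland itself is a tree of luminal and basal epithelium inside a fat pad, which also holds fibroblasts, vessels, nerves, a lymph node and resident immune cells, among them mast cells and macrophages.

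Expression was read as log2 values, in which a difference of 1 is a 2-fold change, for 27309 transcript clusters with a single gene symbol, and 17043 of them (62.4%) had a mean above a detection level of 5.378. This level was taken from 952 olfactory receptor genes, which are silent in most tissues outside the nose, as the 95th percentile of their means. The keratins Krt8 and Krt18 of luminal cells, Krt14 and Krt5 of basal cells, the milk genes Csn3 and Wap and the fat cell hormone gene Adipoq all had means above this level in both groups, whereas an array holds no direct reading of what the label hyperplastic describes. Of the 27309 clusters, 1009 (3.69%) were higher and 525 (1.92%) were lower, 1534 (5.62%) in all, in hyperplastic than in normal glands, by limma's moderated test at a Benjamini-Hochberg adjusted p under 0.05. Most changes were small. The median size of a called change was 0.339 on the log2 scale, 23 called clusters (0.0842%) were more than 2-fold higher and 34 (0.125%) were more than 2-fold lower. Beyond a log2 difference of 2 there were 4 higher (0.0146%), namely Csn1s2a, Sprr1a, Them5 and Defb1, and 3 lower (0.011%), namely Cpa3, Mcpt4 and Kera. In 658 clusters (2.41%) every hyperplastic array lay above every normal array, and in 300 (1.1%) every one lay below. Clusters that were both called and free of overlap numbered 837 (3.06%), and 5275 (19.3%) had an unadjusted p under 0.05.

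The direction of the calls depended on the scale and on the clusters tested. Among 29537 clusters without a symbol, 78 were higher and 926 lower with the values as deposited. For single-symbol clusters, higher calls were 65.8% of all calls with the values as deposited and 53% after a further quantile normalization. They were 10% when each array was centred on 12 reference genes, a step that moved the median change of all clusters to -0.13 against 0.008 as deposited. Changes are given below on the deposited scale. When centred so, 2574 of all 27309 clusters were lower, and counts of lists on that scale stand beside this total. More members of several lists were then lower as well. They were 6 of 20 growth factor genes, 6 of 18 of matrix remodelling, 4 of 20 Wnt genes and 6 of 9 mast cell genes. Among macrophage genes 3 of 21 were lower and among clock genes 3 of 16, and nothing about either list is read from that. A list with a single call among 16 to 21 genes is near the 5.62% of all clusters, and nothing about the list is read from it.

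The arrays of the groups separated on the main axis of variation. Scores on the first principal component (27.5% of the variance) averaged 14.2 ± 11.3 for the hyperplastic and -14.2 ± 2.80 for the normal arrays (mean ± SD, 6 arrays each), with no overlap (exact permutation test over 924 splits, two-sided, p = 0.002165, the smallest it can give, and 0.006494 after adjustment over 3 array measures). An array lay, on average, at a distance from the other arrays of its group of 35.8 ± 4.62 for hyperplastic and 26.8 ± 6.34 for normal glands (exact permutation p = 0.02597, adjusted 0.03896, n = 6 each), a difference that did not pass in 5 of 12 fits without 1 array or when arrays were centred on reference genes (exact permutation p = 0.266). Each split kept the distances as computed, and distances within a group share arrays, so these p-values are only approximate for a difference in spread. Cluster by cluster the spread was no wider, since the SD was larger in hyperplastic glands for 48.2% of clusters and its median was 0.105 in hyperplastic and 0.115 in normal glands. Hyperplastic 3 and hyperplastic 4 stood farthest out, at 29.5 and 27.1 on the first component, while the other 4 lay between 3.66 and 11.3. The control probe sets of the arrays moved with the groups as well. The area under the curve that separates positive from negative controls averaged 0.883 ± 0.0102 in hyperplastic and 0.872 ± 0.00637 in normal glands (exact permutation p = 0.04762, also after adjustment, n = 6 each). This difference no longer passed without hyperplastic 1, 3, 4 or 5, or without normal 1, 2, 3, 5 or 6 (exact permutation p up to 0.0931). The part of this quality measure in single genes was not tested beyond a fit that held it as a covariate. Because the measure differed between the groups, quality and exposure cannot be told apart by a call lost in that fit. In that fit 110 clusters were higher and 148 lower. Without hyperplastic 3 and 4 there were 464 higher and 404 lower, and without normal 1, the array whose omission cost most, 491 higher and 290 lower.

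**Figure D1:**
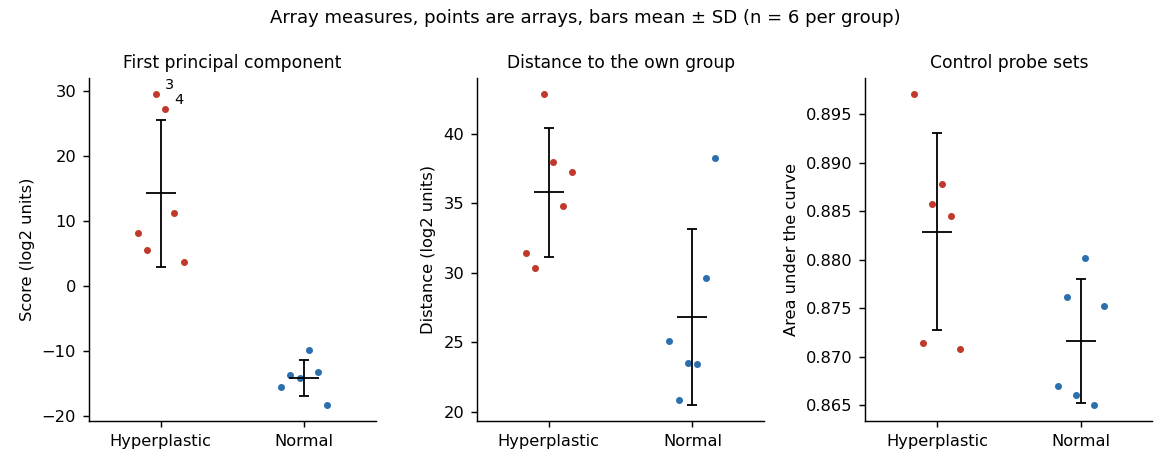
First principal component score, distance to the averaged remaining arrays of the same group (both in log2 units) and area under the curve of control probe sets, for 6 hyperplastic and 6 normal arrays. Points are arrays and bars are mean ± SD; on the first component the hyperplastic arrays lie between 3.66 and 29.5 and the normal arrays between -18.4 and -9.90.

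Genes of mitosis were higher in the hyperplastic glands almost without exception. Of 29 measured genes of the mitosis list, 28 were higher and none was lower, beside 3.69% of all clusters, and their median change was 0.66 against 0.008 over all clusters. In 27 of the 29 the groups did not overlap. Mki67, which codes for the proliferation antigen Ki-67 that coats mitotic chromosomes, measured 9.05, 9.305 and 9.67 (lowest, median and highest array) in hyperplastic glands, against 7.66, 8.375 and 8.59 in normal glands. All 6 hyperplastic arrays lay above all normal arrays, by 1.04 ± 0.14 (SE) on the log2 scale or 2.06-fold (limma, adjusted p = 0.00173). Top2a, the topoisomerase that untangles sister chromatids, measured 7.42, 7.725 and 8.18 in hyperplastic glands, against 5.98, 6.63 and 7.13 in normal glands. It had the largest change of the list, 2.22-fold (log2 1.15 ± 0.18, adjusted p = 0.00417), again without overlap. In the 6 tumors the medians of Mki67 and Top2a were 10.505 and 9.31.

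The promoters of 4 called mitosis genes are shown because the members moved together and because such promoters are known to carry a pair of short elements, the cell cycle homology region (CHR), read here as TTTGAA, and the CCAAT box, read as CCAAT. Each sequence holds 250 bases before and 50 bases after the start of the RefSeq gene in build GRCm38.p6, on the strand of the gene, at chr11:99024140-99024439 (minus strand) for Top2a, chr7:135716330-135716629 (minus) for Mki67, chr7:80294201-80294500 (plus) for Prc1 and chr9:70421505-70421804 (minus) for Ccnb2. Capitals mark every match of either motif on either strand, that is TTTGAA or TTCAAA and CCAAT or ATTGG, which share no overlapping letters in these lines.
Top2a: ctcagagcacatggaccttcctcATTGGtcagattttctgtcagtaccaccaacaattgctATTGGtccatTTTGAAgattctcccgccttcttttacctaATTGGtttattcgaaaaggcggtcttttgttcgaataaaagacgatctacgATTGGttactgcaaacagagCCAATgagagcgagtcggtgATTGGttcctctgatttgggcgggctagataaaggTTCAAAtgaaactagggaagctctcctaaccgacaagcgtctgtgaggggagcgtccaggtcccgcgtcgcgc
Mki67: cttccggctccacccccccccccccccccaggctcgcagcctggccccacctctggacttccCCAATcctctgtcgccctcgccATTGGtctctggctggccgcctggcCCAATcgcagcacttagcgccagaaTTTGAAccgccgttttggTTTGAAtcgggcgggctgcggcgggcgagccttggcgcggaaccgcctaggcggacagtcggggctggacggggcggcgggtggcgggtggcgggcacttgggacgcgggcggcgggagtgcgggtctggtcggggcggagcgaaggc
Prc1: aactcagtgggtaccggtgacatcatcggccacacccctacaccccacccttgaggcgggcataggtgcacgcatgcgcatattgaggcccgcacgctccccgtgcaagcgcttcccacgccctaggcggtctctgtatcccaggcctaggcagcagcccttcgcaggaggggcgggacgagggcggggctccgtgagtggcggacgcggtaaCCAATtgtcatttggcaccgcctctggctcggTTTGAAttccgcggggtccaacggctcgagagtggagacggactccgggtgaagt
Ccnb2: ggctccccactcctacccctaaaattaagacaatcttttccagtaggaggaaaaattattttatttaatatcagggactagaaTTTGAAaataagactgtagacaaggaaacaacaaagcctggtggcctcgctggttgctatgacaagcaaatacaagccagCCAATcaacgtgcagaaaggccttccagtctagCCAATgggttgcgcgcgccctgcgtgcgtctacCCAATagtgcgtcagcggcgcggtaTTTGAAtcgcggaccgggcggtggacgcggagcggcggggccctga
The Top2a window held 2 CHR and 6 CCAAT matches, Mki67 held 2 and 3, Prc1 held 1 and 1, and Ccnb2 held 2 and 3. Of the 29 measured mitosis genes 25 had a promoter in the table, 24 of them called. A CHR match stood in 19 of these 25 (76%) and in 18.1% of all 27025 promoters of the same length. A CCAAT match stood in 19 (76%) and in 37.9% of all, and both together in 17 (68%) and in 7.12% of all. These are matches of letters, and binding was not measured here.

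Ccna2, the cyclin of S phase and early mitosis, was 1.95-fold higher (log2 0.96 ± 0.10, adjusted p = 0.00062) and Tpx2, a spindle assembly factor, was 1.87-fold higher (log2 0.91 ± 0.09, adjusted p = 0.000506), both without overlap. Prc1, which bundles the microtubules of the central spindle, and Ccnb2, a mitotic cyclin, are among the 28 as well. Smaller changes were found for Plk1, a mitotic kinase (log2 0.66), Cdk1, the kinase that starts mitosis (0.55), and Birc5, which codes for survivin (0.34). The exception was Cenpa, the histone variant of centromeres, with a log2 difference of 0.16 ± 0.06 (adjusted p = 0.115), although all 6 hyperplastic arrays lay above the normal mean. Aurka, a spindle pole kinase, passed the test at log2 0.35 (adjusted p = 0.0332) with overlapping groups, and lost its call in 6 of 12 fits that each left out 1 array (adjusted p up to 0.0824). The count of higher mitosis genes stayed at 27 or 28 in those fits, was 26 when arrays were centred on reference genes, 20 with the quality measure as a covariate, and 13 in a fit that took the spread from all 18 arrays.

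**Figure D2:**
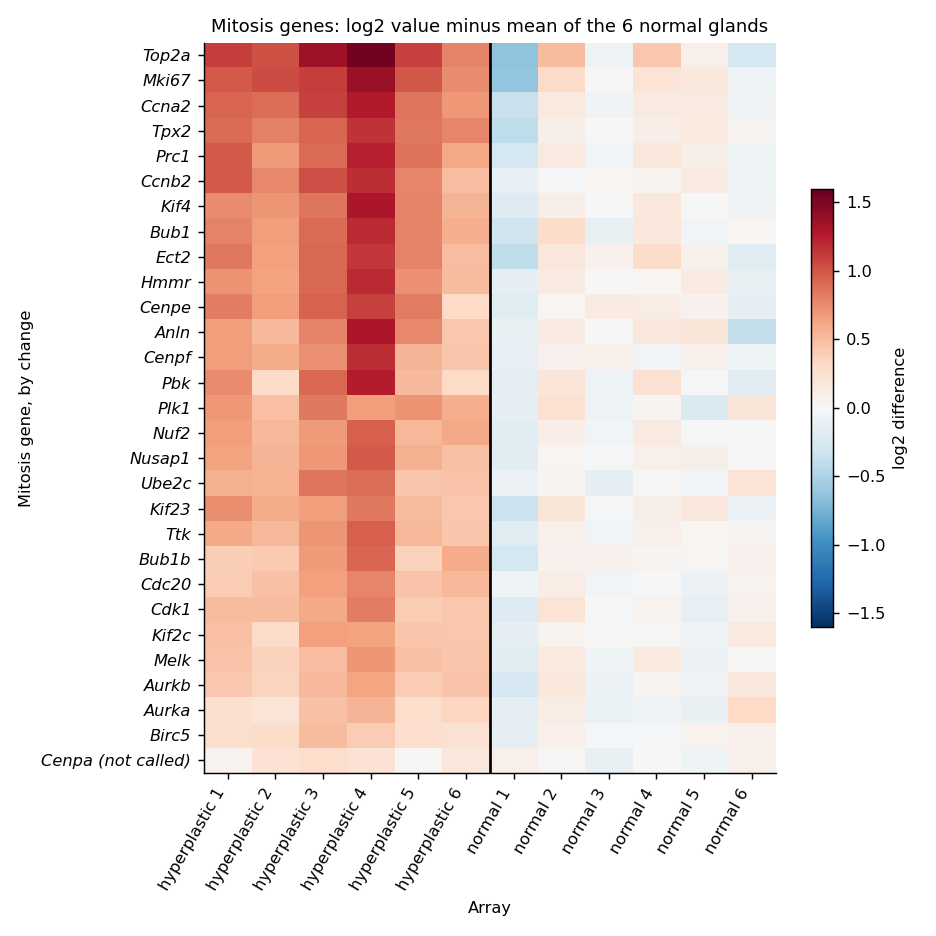
Heat map of the 29 measured mitosis genes (rows, by size of change) on the 6 hyperplastic and 6 normal arrays (columns). Colour is the log2 value minus the mean of the 6 normal glands; the hyperplastic columns are red in nearly every row, most strongly hyperplastic 4, and Cenpa is the row without a call.

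A few genes outside the list, chosen after their values were seen, were higher too. Kpna2, an importin of nuclear transport, measured 8.69, 8.84 and 9.0 in hyperplastic glands, against 7.5, 7.935 and 8.18 in normal glands, 1.94-fold higher without overlap (limma, adjusted p = 0.000763). The cluster read for Kpna2 is placed on chromosome 3, away from the gene's own locus, and how far its probes read the gene was not tested. Ckap2, a protein of spindle microtubules, measured 5.72, 6.165 and 6.56 in hyperplastic and 4.9, 5.085 and 5.31 in normal glands, where it lay below the detection level, so its log2 difference of 1.10 (adjusted p = 0.000697) is given without a fold. Knl1, a kinetochore scaffold, and Shcbp1, a protein of the midbody, were likewise above the level in the hyperplastic group alone (log2 0.84 and 0.96, adjusted p = 0.000832 and 0.00165). Kinesins, motor proteins of which some act in mitosis, had 7 of 29 higher and 1 lower, beside 3.69% and 1.92% over all clusters. Their median was 0.02, and the mitotic Kif4 led at log2 0.83. When arrays were centred on reference genes 6 kinesins were higher and 6 lower, beside 287 higher and 2574 lower of all 27309 clusters.

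Of 25 measured genes of DNA replication, 7 were higher and none was lower, beside 3.69% higher over all clusters, with a median change of 0.24. Rrm2, the small subunit of ribonucleotide reductase, measured 6.95, 7.08 and 7.32 in hyperplastic glands, against 5.95, 6.28 and 6.92 in normal glands, 1.63-fold higher without overlap (log2 0.71 ± 0.15, adjusted p = 0.0195). Tyms (thymidylate synthase), Gins1 (replicative helicase) and Prim1 (primase) changed by log2 0.33, 0.33 and 0.32. Mcm6, part of the helicase ring, had a log2 difference of 0.68 ± 0.25 that did not pass (adjusted p = 0.15), as 1 normal array reached 8.3. The count of 7 ranged from 1 (without normal 1) to 12 when single arrays were left out and was 0 without hyperplastic 3 and 4 and 1 when centred on reference genes. Histone genes, mostly replication-dependent and closely alike in sequence, had 12 of 34 higher and none lower (6 higher without normal 1, 4 when centred on reference genes).

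Targets of p53, the factor that DNA damage activates, had 6 of 14 higher and none lower, beside 3.69% higher over all clusters, with a median of 0.26. Eda2r, a death receptor of the TNF receptor family, measured 5.56, 5.745 and 6.78 in hyperplastic glands, against 5.08, 5.22 and 5.32 in normal glands, where its mean lay below the detection level, without overlap (log2 0.73 ± 0.17, adjusted p = 0.0243). Ccng1, cyclin G, was 1.52-fold higher (adjusted p = 0.0377) and Sesn2, sestrin 2, was 1.41-fold higher (adjusted p = 0.0144). Zmat3, an RNA-binding tumor suppressor, Aen, an apoptosis nuclease, and Tnfrsf10b, the TRAIL receptor, changed by log2 0.26, 0.27 and 0.24. Mdm2, the ligase that degrades p53, stood at log2 0.26 (adjusted p = 0.119), Perp, a desmosome protein, at 1.00 (0.0683) and Btg2, an antiproliferative gene, at -0.46 (0.0945), none of which passed. The number of higher members fell to 2 without hyperplastic 4 or without normal 3, and to 0 with the quality measure as a covariate, and 3 were higher and 1 lower when centred on reference genes. Of 16 genes of the response to xenobiotics and oxidants, Hmox1, heme oxygenase, was higher (log2 0.77, adjusted p = 0.034) and Gclc, which starts glutathione synthesis, was lower (log2 -0.51, adjusted p = 0.0374). Both calls were lost in most fits that left out 1 array, 8 of 12 for Hmox1 and 9 of 12 for Gclc.

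The deepest falls among called clusters were those of the mast cell protease genes Cpa3 and Mcpt4 and of the matrix gene Kera. Mcpt4, a chymase of connective tissue mast cells, measured 6.76, 7.34 and 7.73 in hyperplastic glands, against 9.42, 9.74 and 10.01 in normal glands. The groups lay far apart, and the gene was 5.51-fold lower (log2 -2.46 ± 0.14, limma, adjusted p = 3e-06). Cpa3, mast cell carboxypeptidase, measured 6.88, 7.75 and 8.37 in hyperplastic glands, against 9.65, 10.23 and 10.5 in normal glands, and was 5.68-fold lower (adjusted p = 0.000143). Cma1, a further chymase whose gene lies in the same cluster on chromosome 14 as Mcpt4, measured 5.87, 6.125 and 6.56 in hyperplastic and 7.38, 7.79 and 8.2 in normal glands, 3.08-fold lower (adjusted p = 0.000104). For all 3 proteases every hyperplastic array was below every normal array.

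Mrgprb1, a Mas-related receptor of mast cells, averaged below the detection level in hyperplastic glands (4.07, 4.185 and 4.36) and above it in normal glands (5.1, 5.495 and 6.15), so its log2 difference of -1.38 ± 0.15 (adjusted p = 0.00067) is given without a fold. These 4 were the lower members among 9 measured mast cell genes, beside 1.92% lower over all clusters, and the same number was lower in each of 12 fits without 1 array. The remaining members did not pass the test. Kit, the stem cell factor receptor, which luminal progenitor cells of the gland also express, measured 9.25, 9.595 and 10.49 in hyperplastic and 9.2, 9.36 and 9.69 in normal glands (log2 0.26, adjusted p = 0.489). Hdc, the enzyme that makes histamine, had medians of 6.465 in hyperplastic and 6.6 in normal glands (log2 0.04, adjusted p = 0.969), with hyperplastic 3 highest at 7.69 and a log2 difference of -0.18 without that array. Gata2, a mast cell and blood cell factor, stood at log2 -0.15 (adjusted p = 0.235), and Fcer1a and Mrgprb2 were below the detection level in both groups. In the tumors the medians of Mcpt4 and Cpa3 were 5.79 and 5.43.

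All 7 measured members of the Cd209 family were lower in hyperplastic glands, beside 1.92% lower over all clusters. These genes, chosen as a group after their values were seen, lie in a cluster on chromosome 8 and code for lectins related to human DC-SIGN, which bind sugars of microbes on macrophages and dendritic cells. Their median change was -1.15. Cd209b, the receptor SIGN-R1 of macrophages, measured 6.56, 7.16 and 8.73 in hyperplastic glands, against 8.59, 9.25 and 9.44 in normal glands, and was 3.29-fold lower (log2 -1.72 ± 0.30, adjusted p = 0.00669). Its groups overlapped at hyperplastic 6, the single array above 8. Cd209d measured 6.25, 6.455 and 6.75 in hyperplastic and 7.34, 8.0 and 8.29 in normal glands, 2.73-fold lower without overlap (adjusted p = 0.000361). Cd209a was 2.24-fold lower (adjusted p = 0.000853), Cd209g 2.21-fold (0.0104), Cd209f 1.83-fold (0.0109) and Cd209c 1.64-fold (0.000763), in each case with no overlap. Cd209e, at log2 -0.40, averaged below the detection level in both groups. All 7 stayed lower in each fit without 1 array, 6 did without hyperplastic 3 and 4, and 5 with the quality measure as a covariate. The genes are alike in sequence, and how far the probes keep them apart was not tested.

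Cd163 and a few other macrophage genes were lower, whereas most macrophage genes had no call. Cd163, the receptor for hemoglobin and haptoglobin, measured 7.2, 7.55 and 7.83 in hyperplastic glands, against 8.16, 8.69 and 8.98 in normal glands, 2.22-fold lower without overlap (log2 -1.15 ± 0.14, adjusted p = 0.000903). Marco, a scavenger receptor, was 2.03-fold lower (adjusted p = 0.00201) and Retnla, a secreted product of alternatively activated macrophages, was 1.78-fold lower (adjusted p = 0.00465), both outside the lists and chosen after their values were seen. Hc, complement component C5, which macrophages can make, measured 6.57, 7.045 and 7.78 in hyperplastic and 7.9, 8.265 and 8.78 in normal glands, 2.32-fold lower (adjusted p = 0.00537). Of 21 measured genes of macrophages and monocytes Cd163 alone was called, and the median change was 0.20. Mrc1, the mannose receptor, had medians of 10.06 in hyperplastic and 10.195 in normal glands (log2 -0.21, adjusted p = 0.56), and Lyz2, lysozyme, had 12.32 and 12.015 (log2 0.27, adjusted p = 0.135). Timd4, a receptor for dying cells, stood at log2 -0.64 (adjusted p = 0.152), Msr1, a scavenger receptor, at 0.70 (0.0753) and Fcgr1, an Fc receptor, at 0.71 (0.123). Among 16 dendritic cell genes 1 was higher and 3 were lower, beside 3.69% and 1.92% over all clusters. The lower genes were Cd209a, the plasmacytoid cell marker Siglech (log2 -0.73, adjusted p = 0.0295) and Dpp4 (-0.50, 0.0376), a peptidase that fibroblasts also carry. Siglech and Dpp4 lost their calls in 9 of 12 fits each.

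**Figure D3:**
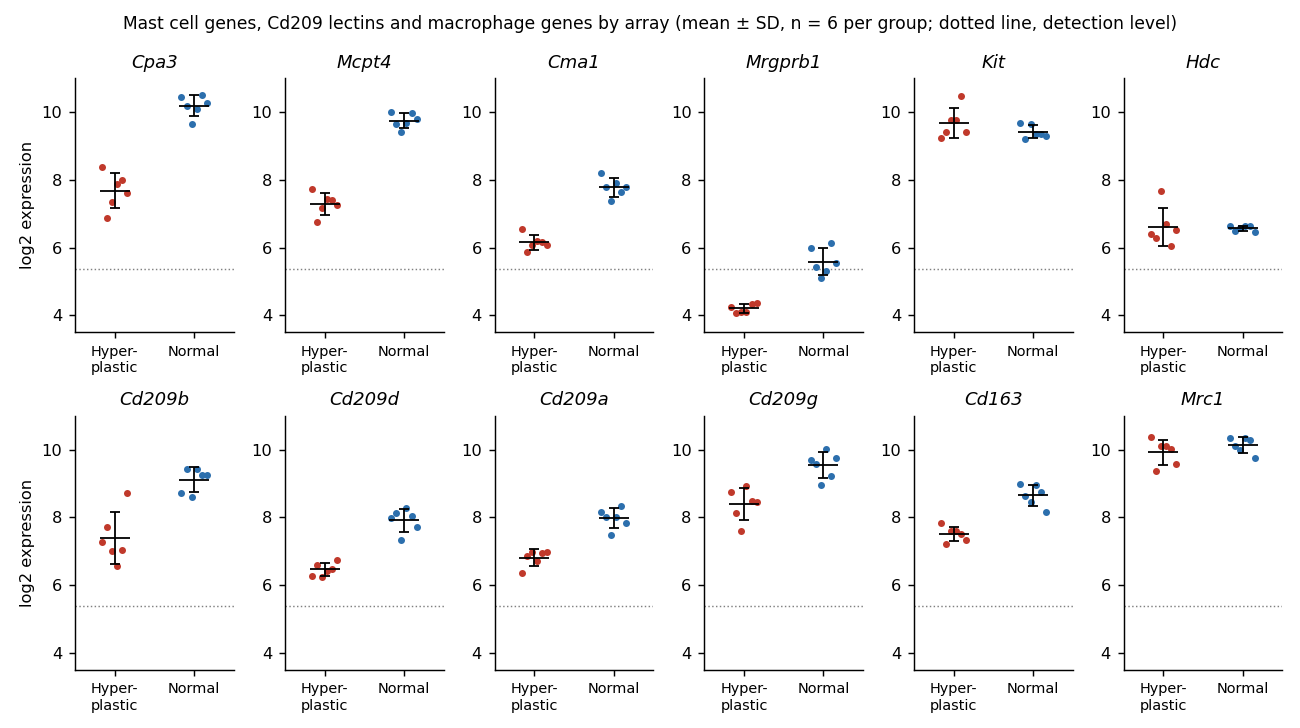
Log2 expression of 6 mast cell genes, 4 Cd209 lectins and the macrophage genes Cd163 and Mrc1 by array, hyperplastic on the left and normal on the right of each panel, with mean ± SD (n = 6 each). The dotted line is the detection level of 5.378; Cpa3, Mcpt4 and Cma1 separate completely, while Kit, Hdc and Mrc1 overlap.

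Of 19 measured genes that interferon induces, 7 were higher in hyperplastic glands and none was lower, beside 3.69% higher over all clusters, with a median change of 0.37, and the count stayed at 7 or 8 when single arrays were left out. Outside the list, Igtp, a GTPase that interferon gamma induces against intracellular pathogens, measured 8.85, 9.38 and 9.7 in hyperplastic glands, against 7.62, 8.18 and 8.4 in normal glands, 2.36-fold higher without overlap (log2 1.24 ± 0.15, adjusted p = 0.000811). Within it, Cxcl9, the chemokine that calls T cells through CXCR3, measured 9.99, 10.475 and 10.85 in hyperplastic and 9.22, 9.31 and 9.76 in normal glands, 2.02-fold higher without overlap (adjusted p = 0.00172). The guanylate-binding protein genes Gbp2 and Gbp3 were 1.72-fold and 1.44-fold higher (adjusted p = 0.00688 and 0.0123). Oas1a, which senses double-stranded RNA, was 1.70-fold higher (adjusted p = 0.0131) and Bst2, which tethers virus particles, was 1.44-fold higher (0.0115). Irgm2, a relative of Igtp outside the list and chosen after its values were seen, was 1.57-fold higher without overlap (adjusted p = 0.00146). Its relative Irgm1 stood at log2 0.31 (adjusted p = 0.136). The guanylate-binding family, whose members share much of their sequence, had 4 of 7 higher in all, 2 when normal 1 or normal 2 was left out or when arrays were centred on reference genes. With the quality measure as a covariate 1 gene of the interferon list was higher, and 1 was in the fit that took its spread from all 18 arrays.

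Some genes of the acute-phase response, picked out after their values were seen, were higher. Hp, haptoglobin, measured 9.71, 10.1 and 10.75 in hyperplastic glands, against 9.0, 9.195 and 9.36 in normal glands, 2.01-fold higher without overlap (adjusted p = 0.00641). The orosomucoid genes Orm1 and Orm2, which code for plasma glycoproteins of nearly the same sequence, were 1.96-fold and 1.75-fold higher (adjusted p = 0.0144 and 0.0135), and the protease inhibitor gene Serpina3n was 1.82-fold higher (0.00764). All 4 lost their calls with the quality measure as a covariate, and Hp, Orm1 and Serpina3n also did with the spread taken from all 18 arrays. Sele, the adhesion molecule E-selectin of activated endothelium, also chosen after its values were seen, was 2.39-fold lower (limma, adjusted p = 0.0191), with overlapping groups. Its call too was lost with the quality measure as a covariate and with the spread taken from all 18 arrays.

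Most lymphocyte genes had no call, and their values varied widely between arrays. Cd3e, a chain of the T cell receptor complex, measured 8.57, 9.4 and 10.11 in hyperplastic glands, against 8.29, 9.38 and 9.62 in normal glands (log2 0.15 ± 0.29, adjusted p = 0.882), and without normal 1, the lowest array, the difference was -0.04. Ptprc, the leukocyte antigen CD45, had medians of 10.065 in hyperplastic and 10.285 in normal glands (adjusted p = 0.876). Ctla4, the inhibitory receptor of regulatory and activated T cells, was the 1 called gene of 17 in the T cell list, a share near the 5.62% called over all clusters. It measured 5.94, 6.465 and 6.85 in hyperplastic and 5.35, 5.63 and 5.85 in normal glands, 1.75-fold higher without overlap (log2 0.81 ± 0.15, adjusted p = 0.00816). Cxcr4, a chemokine receptor of many leukocytes chosen after its values were seen, was 1.78-fold higher without overlap (adjusted p = 0.00146). Of 17 B cell genes, Ebf1 alone was called, 1.42-fold lower (adjusted p = 0.0135), a transcription factor that fat cells and fibroblasts also express. Gzmk, a granzyme, was the 1 higher gene among 17 of cytotoxic cells, with both groups below the detection level.

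Jchain, which joins secreted IgA and IgM, measured 5.67, 6.98 and 7.59 in hyperplastic glands, against 7.62, 7.995 and 8.35 in normal glands. The groups touched without overlapping, and the fall of 2.21-fold (log2 -1.14 ± 0.29, adjusted p = 0.0387) lost its call in 8 of 12 fits without 1 array. Of 199 immunoglobulin variable segments, 23 were lower and none was higher, beside 1.92% lower over all clusters, with a median of -0.55. Of the 199, 3 lay wholly lower, near the 1.1% of all clusters that did. The score of these segments, their average on an array once each was centred, ran from -1.01 to 0.16 in hyperplastic and from -0.05 to 0.70 in normal glands, so that the groups overlapped, with hyperplastic 4 lowest. The number of lower segments was 6 without hyperplastic 1 or without normal 2, and 0 with the quality measure as a covariate. Centred on reference genes it was 84, beside 2574 lower of all 27309 clusters. T cell receptor variable segments had no call by limma among 114, of which 3 had an unadjusted p under 0.05.

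Of 18 measured luminal epithelial genes, 6 were higher and 1 was lower, beside 3.69% and 1.92% over all clusters, with a median change of 0.35. Cldn4, a claudin of tight junctions, measured 8.93, 9.405 and 10 in hyperplastic glands, against 8.36, 8.595 and 8.92 in normal glands, 1.79-fold higher (log2 0.84 ± 0.16, adjusted p = 0.00901), with the groups touching but not overlapping. Krt19, a keratin of ducts, measured 10.17, 10.415 and 10.88 in hyperplastic and 9.62, 9.78 and 9.92 in normal glands, 1.63-fold higher without overlap (adjusted p = 0.00674). Prom1, a membrane protein of hormone-sensing luminal cells, was 1.96-fold lower (adjusted p = 0.0419), a call lost in 7 of 12 fits without 1 array. Krt8 had a log2 difference of 0.47 (adjusted p = 0.12) that passed, of the settings tried, only without hyperplastic 1, which had the lowest luminal score of the hyperplastic arrays (-0.34), and Krt18 one of 0.13 (0.735). The count of higher luminal genes ranged from 2 to 10 over fits without 1 array, with 2 left in 7 of those 12 fits, and was 2 when centred on reference genes. Cldn4 and Krt19 kept their calls in each fit without 1 array. Both lost them with the spread taken from all 18 arrays, a fit in which no luminal gene was called. Krt19 also lost its call with the quality measure as a covariate. None of 12 basal and none of 10 hormone-sensing luminal genes passed limma's test (at an unadjusted p under 0.05 they numbered 3 and 4). Krt14 had medians of 9.355 in hyperplastic and 9.11 in normal glands (log2 0.43, adjusted p = 0.408) and Krt5 of 10.595 and 10.14 (0.54, 0.183).

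Them5 and Defb1 were among the 4 calls with a log2 difference above 2, both over normal means below the detection level. Them5, a thioesterase of long-chain acyl-CoA, measured 5.84, 6.61 and 8.16 in hyperplastic glands, against 4.35, 4.54 and 4.92 in normal glands, where it lay below the detection level, with a log2 difference of 2.15 ± 0.31 (limma, adjusted p = 0.00207). Defb1, an antimicrobial beta-defensin, measured 6.07, 7.405 and 8.65 in hyperplastic and 5.07, 5.21 and 5.45 in normal glands, whose mean was again below that level (log2 2.14 ± 0.38, adjusted p = 0.00697). Neither gene overlapped between groups. Clca2, a chloride channel regulator, rose by log2 1.04 over a normal mean below detection (adjusted p = 0.00249). Wfdc18, a small secreted protein with a whey acidic protein domain, was 2.12-fold higher (adjusted p = 0.0268, lost in 4 of 12 fits). Pcp4, which binds calmodulin, measured 6.8, 7.92 and 9.27 in hyperplastic and 6.21, 6.48 and 6.63 in normal glands, 2.85-fold higher (adjusted p = 0.0227, and 0.0552 without normal 1).

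Milk genes differed widely within each group. Csn1s2a, a casein, had the largest log2 difference of all called clusters, 3.26 ± 0.79 or 9.57-fold (adjusted p = 0.0306), and measured 7.07, 10.075 and 11.96 in hyperplastic glands, against 5.19, 6.255 and 9.43 in normal glands. The groups overlapped, since hyperplastic 2 lay below normal 3, and the call was lost in 8 of 12 fits without 1 array. Csn2, beta-casein, measured 6.09, 8.275 and 10.22 in hyperplastic and 5.32, 6.805 and 8.89 in normal glands (log2 1.41 ± 0.64, adjusted p = 0.245). Wap stood at log2 0.64 (adjusted p = 0.174) and Csn3, kappa-casein, at -0.01 (0.994). Csn1s2a was the 1 called gene of 21 milk and alveolar genes, beside 5.62% called over all clusters.

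Genes that report on progestin and glucocorticoid action changed in part. Of 17 measured targets 3 were higher and none was lower, beside 3.69% higher over all clusters, with a median of 0.22. Tsc22d3, which codes for the glucocorticoid-induced leucine zipper, measured 7.19, 7.55 and 7.88 in hyperplastic glands, against 6.98, 7.1 and 7.19 in normal glands, 1.36-fold higher (log2 0.44 ± 0.10, adjusted p = 0.0242), a call lost without normal 1 (adjusted p = 0.0633). Errfi1, a feedback inhibitor of EGF receptors, was 1.43-fold higher (adjusted p = 0.0228) and Sgk1, a glucocorticoid-induced kinase, 1.23-fold higher (0.0302). Tnfsf11, the RANK ligand, measured 6.18, 6.925 and 7.65 in hyperplastic and 5.94, 6.12 and 6.36 in normal glands. Its groups overlapped through hyperplastic 3 and 5, at 6.25 and 6.18, while the other 4 hyperplastic arrays lay above all normal arrays. The log2 difference of 0.77 ± 0.23 did not pass (adjusted p = 0.067), and it passed when either of those arrays was left out, with array weights, and when only clusters above the detection level were tested. The count of higher targets ranged from 1, without normal 1, to 6 over the fits without 1 array, and was 1 with 1 lower when centred on reference genes.

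The hormone receptors themselves were not called. Pgr, the progesterone receptor, measured 7.1, 8.065 and 8.94 in hyperplastic glands, against 7.35, 7.515 and 8.19 in normal glands (log2 0.45 ± 0.25, adjusted p = 0.359), and hyperplastic 3 was the lowest of all 12 arrays. Esr1, the estrogen receptor, had medians of 7.55 in hyperplastic and 7.63 in normal glands (log2 -0.14, adjusted p = 0.57), and Erbb2 had 7.74 and 7.81 (-0.03, 0.916). Prlr, the prolactin receptor, was not analysed here. A pair of stress genes outside the list was among the 12 largest rises without overlap. Ddit4, an inhibitor of mTOR signalling that glucocorticoids and low oxygen induce, measured 8.62, 8.685 and 9.37 in hyperplastic glands, against 7.56, 7.665 and 7.86 in normal glands, 2.25-fold higher (log2 1.17 ± 0.13, adjusted p = 0.00062). Depp1, a target of FOXO factors, was 2.1-fold higher (adjusted p = 0.0198).

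Of 20 growth factor genes of the gland, 1 was higher and 2 were lower, beside 3.69% and 1.92% over all clusters. Nrg1, neuregulin, a ligand of ERBB3 and ERBB4, measured 6.03, 6.44 and 7.0 in hyperplastic glands, against 5.64, 5.725 and 5.89 in normal glands, 1.64-fold higher without overlap (adjusted p = 0.00624). Igf1r, the receptor of insulin-like growth factor, measured 7.84, 7.955 and 8.02 in hyperplastic and 8.23, 8.4 and 8.5 in normal glands, 1.36-fold lower without overlap (adjusted p = 0.000763). Hgf, hepatocyte growth factor, was 1.42-fold lower (adjusted p = 0.031), lost in 6 of 12 fits. The EGF receptor ligand gene Ereg stood at log2 0.71 (adjusted p = 0.131).

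Of 10 measured genes of fatty acid synthesis, 5 were higher and none was lower, beside 3.69% higher over all clusters, with a median of 0.67. Elovl6, which lengthens fatty acids, measured 9.03, 10.25 and 10.51 in hyperplastic glands, against 7.9, 8.855 and 9.44 in normal glands, 2.50-fold higher (log2 1.32 ± 0.34, adjusted p = 0.039). The groups overlapped at hyperplastic 3. Acly, which supplies acetyl-CoA, was 1.95-fold higher (adjusted p = 0.042), Slc25a1, the citrate carrier, 1.61-fold (0.0138) and Thrsp, a lipogenic regulator, 1.58-fold (0.0268). Me1, malic enzyme, and the synthases Acaca and Fasn stood at log2 0.93, 0.82 and 0.60 without passing (adjusted p = 0.0554, 0.0833 and 0.0912). The number of higher members fell to 2 when hyperplastic 1, 4 or 5 or normal 1 or 3 was left out, was 6 when centred on reference genes, and was 0 with the quality measure as a covariate. Most fat cell genes had no call. Gpd1, glycerol-3-phosphate dehydrogenase, was the 1 higher gene of 17 white fat genes (log2 0.56, adjusted p = 0.0233), and Adipoq had medians of 10.185 in hyperplastic and 10.235 in normal glands (adjusted p = 0.776). Mfsd2a, a carrier of lysophospholipids, and Fabp5, a fatty acid binding protein, chosen after their values were seen, were 2.03-fold and 1.74-fold higher without overlap (adjusted p = 0.000143 and 0.000763).

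Subunits of a few large protein machines, chosen as families after their values were seen, were higher by small and even amounts. Of 34 proteasome subunits 25 were higher and none was lower, beside 3.69% higher over all clusters, with a median of 0.29. Psmc4, an ATPase of its regulatory particle, measured 8.76, 8.85 and 8.91 in hyperplastic glands, against 8.16, 8.37 and 8.49 in normal glands, 1.42-fold higher without overlap (log2 0.51 ± 0.05, adjusted p = 0.00062). Psmb2 and Psma5 of the catalytic core and Psmd2 of the regulatory particle were 1.40-fold, 1.38-fold and 1.36-fold higher (adjusted p = 0.000697, 0.0056 and 0.0066). Of 78 subunits of the respiratory chain and ATP synthase 30 were higher, with a median of 0.20, and of 60 mitochondrial ribosomal proteins 14 were, with a median of 0.14, none being lower in either family. Cytosolic ribosomal proteins had 1 of 34 higher and a median of 0.02. These counts moved with the scale, and with a covariate for the quality measure, which itself differed between the groups. Centred on reference genes, 10 proteasome, 8 respiratory and 1 mitochondrial ribosomal gene were higher, and with the quality measure as a covariate 3, 3 and 0. Without normal 1 there were 17 higher proteasome and 2 higher mitochondrial ribosomal genes, without normal 3 there were 20 higher respiratory genes, and without hyperplastic 3 and 4 there were 10, 16 and 4 of the 3 families.

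In the stroma a set of matrix genes was lower. Kera, keratocan, a small leucine-rich proteoglycan known from the cornea, measured 3.88, 4.095 and 4.48 in hyperplastic glands, below the detection level, against 6.03, 6.505 and 6.67 in normal glands. The groups were far apart (log2 -2.27 ± 0.13, adjusted p = 3e-06), and the tumors had a median of 4.005. Its neighbours in a cluster on chromosome 10, the proteoglycan genes Lum and Dcn, were 1.70-fold and 1.37-fold lower (adjusted p = 0.0109 and 0.00319). Fap, a peptidase of activated fibroblasts, was 1.67-fold lower (adjusted p = 0.00916). Of 21 fibroblast and matrix genes 5 were lower and none was higher, beside 1.92% lower over all clusters, with a median of -0.21. In the fits without 1 array 3 to 5 of them were lower, and with the spread taken from all 18 arrays 1 was. The fibrillar collagen genes Col1a1 and Col3a1 did not pass, at log2 -0.20 and -0.22 (adjusted p = 0.533 and 0.439). Centred on reference genes 9 of the 21 were lower, beside 2574 of all 27309 clusters.

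Outside that list, Srpx, a sushi repeat protein of the matrix, measured 7.22, 7.37 and 8.03 in hyperplastic glands, against 8.4, 8.755 and 8.79 in normal glands, 2.21-fold lower without overlap (adjusted p = 0.00103). Ecm2, a matrix glycoprotein, Fat4, a giant cadherin, and Lama2, a laminin chain of basement membranes, chosen after their values were seen, were 2.08-fold, 2.04-fold and 1.94-fold lower, each without overlap (adjusted p = 0.00178, 0.000316 and 0.00189). Vcan, the proteoglycan versican, went the other way. It measured 7.54, 8.07 and 8.7 in hyperplastic and 6.61, 7.015 and 7.52 in normal glands, 2.17-fold higher (log2 1.12 ± 0.21, adjusted p = 0.00858) and without overlap, though the nearest arrays of the groups almost met. Mmp2, a gelatinase, was the 1 called gene of 18 in the matrix remodelling list, 1.52-fold lower (adjusted p = 0.0135), and Dkk2, an inhibitor of Wnt signals, the 1 of 20 in the Wnt list, 1.36-fold lower (0.00596).

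Endothelial genes split. Of 17 measured, Vwf, von Willebrand factor, was 1.55-fold lower (adjusted p = 0.000903), Emcn, endomucin of veins and capillaries, 1.53-fold lower (0.00122) and Tek, the angiopoietin receptor TIE2, 1.6-fold lower (0.00969). Apln, apelin, a peptide of sprouting tip cells, measured 5.68, 5.705 and 6.15 in hyperplastic glands, against 5.08, 5.135 and 5.25 in normal glands, below the detection level there, and was higher without overlap (log2 0.63 ± 0.08, adjusted p = 0.000949). The same numbers, 1 higher and 3 lower, were called in each fit without 1 array, beside 3.69% higher and 1.92% lower over all clusters. With the spread taken from all 18 arrays Apln lost its call and the 3 lower genes kept theirs. Tek lost its call with the quality measure as a covariate. Of 15 immediate early genes, whose transcripts respond to stimuli within minutes, Ier2 and Klf4 were lower (log2 -0.60 and -0.34, adjusted p = 0.0228 and 0.0464) and the median was -0.38. Both calls depended on single arrays, since none was left without normal 3 or without normal 5. When arrays were centred on reference genes 11 of the 15 were lower, beside 2574 of all 27309 clusters.

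**Figure D4:**
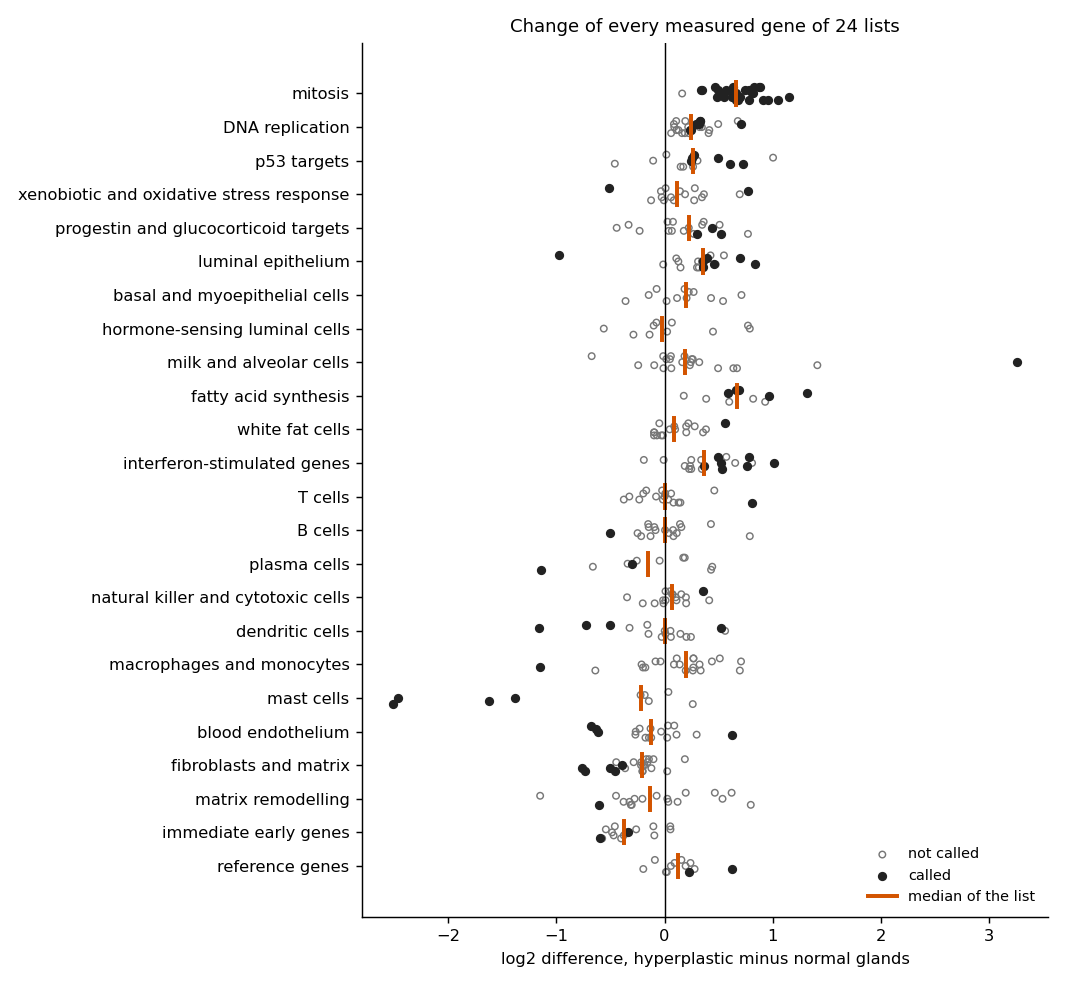
Log2 difference, hyperplastic minus normal glands, of every measured gene of 24 lists. Filled points passed limma's test at an adjusted p under 0.05, open points did not, and the orange bar is the median of the list; mitosis has 28 of 29 filled points right of 0, and the points farthest left are Cpa3 and Mcpt4.

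Markers of tissues other than the gland varied between single arrays. The epidermis score was 2.25 in hyperplastic 3 and ran from -0.32 to 0.03 in the other 5 hyperplastic arrays, against -0.55 to 0.32 in normal glands. Krt1, a keratin of differentiated skin, measured 10.12 in hyperplastic 3, at most 5.07 in the other hyperplastic arrays and at most 6.88 in normal glands. S100a8, a neutrophil protein that irritated skin also makes, measured 9.78 in hyperplastic 3, at most 5.74 in the other hyperplastic arrays and at most 5.16 in normal glands. The neutrophil score of the same array was 1.07, and no gene of 17 on that list passed limma's test (2 at an unadjusted p under 0.05). Sprr1a, a small proline-rich protein of the cornified envelope that is also induced by stress in other epithelia, measured 6.17, 7.895 and 11.09 in hyperplastic glands, against 5.28, 5.925 and 6.65 in normal glands, with hyperplastic 3 highest (4.71-fold, adjusted p = 0.046, lost in 10 of 12 fits). Krt15, a basal keratin, was the other of the 2 called genes among 13 of the epidermis list (log2 0.95, adjusted p = 0.0327), beside 5.62% called over all clusters. The median of that list was 0.52 with all arrays and 0.04 without hyperplastic 3.

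Skeletal muscle genes, whose source in the samples was not tested, had a score from -1.31 to 2.01 in hyperplastic glands, with hyperplastic 4 highest. In normal glands the score ran from -1.27 to 0.92, and none of 17 genes passed limma's test (0 at an unadjusted p under 0.05). T cell scores ran from -0.61 to 0.63 in hyperplastic and from -0.63 to 0.20 in normal glands and overlapped. Of 11 genes of lymph node stroma and homing, 2 were higher, beside 3.69% over all clusters. They were Madcam1, an adhesion molecule of lymph node vessels, and Ltbr, the lymphotoxin receptor (log2 0.47 and 0.19, adjusted p = 0.0118 and 0.0391). Neither was higher when centred on reference genes, and Ltbr lost its call in 8 of 12 fits without 1 array. Lymphatic endothelium with 6 genes, Schwann cells with 3 and nicotinamide and NAD metabolism with 14 had no call by limma, with 2, 0 and 3 genes at an unadjusted p under 0.05. In brown fat Dio2, the deiodinase of thyroid hormone, and Otop1, a proton channel, were higher among 8 (log2 0.77 and 0.45), the first over a normal mean below detection and the second with its call lost in 11 of 12 fits and when centred. Npas2, a clock factor, was lower among 16 clock genes (log2 -0.42, adjusted p = 0.00968), and of the 2 measured erythrocyte genes Alas2, which starts heme synthesis, was higher (0.47, 0.0479, lost in 10 of 12 fits). Of the 12 reference genes Pgk1, a glycolytic enzyme that low oxygen induces, was 1.54-fold higher without overlap (adjusted p = 0.00734, for the brighter of its clusters, which is placed on chromosome 12 although the gene is X-linked) and B2m, the light chain of MHC class I that interferon induces, 1.17-fold higher (0.042, lost in 11 of 12 fits), and these genes entered the centring given above.

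**Figure D5:**
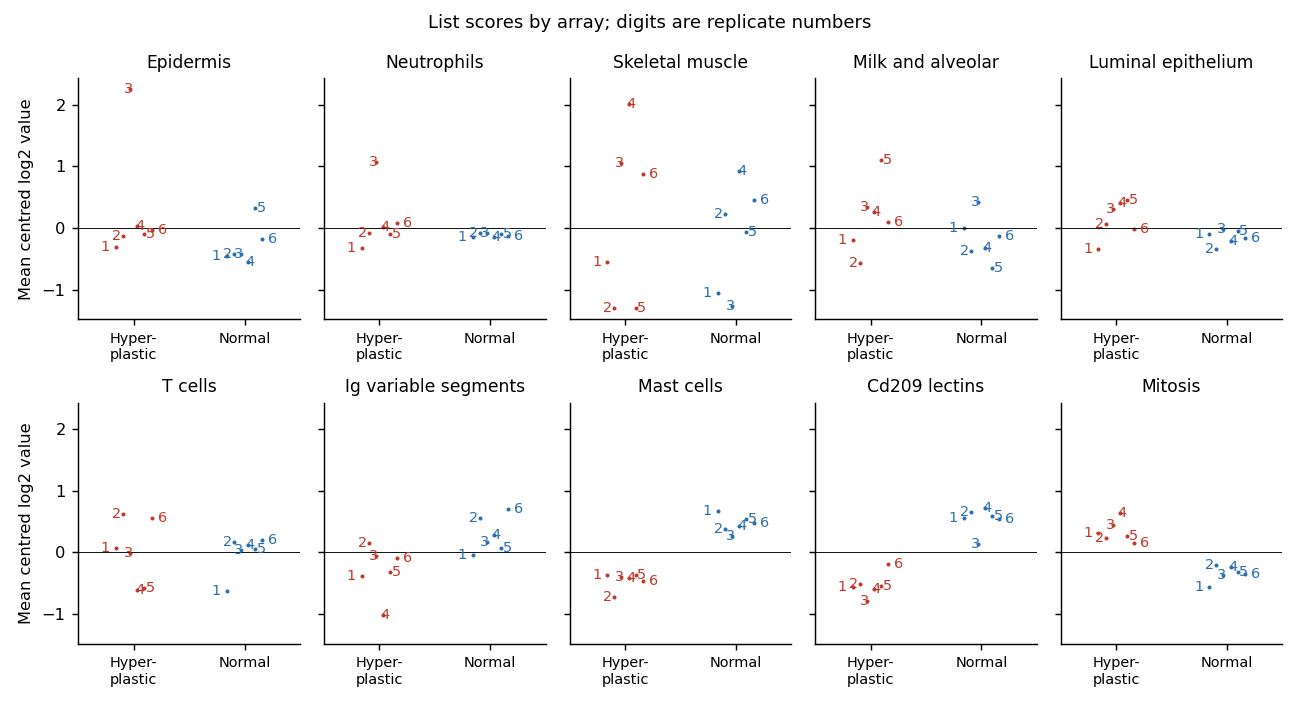
Scores of 10 lists by array, hyperplastic left and normal right, where scores average the genes of a list, each centred over the 12 arrays (log2 units), and digits are replicate numbers. Hyperplastic 3 stands apart in epidermis and neutrophil genes, and hyperplastic 4 is the highest of widely spread muscle scores. Mast cell, Cd209 lectin and mitosis scores separate the groups.

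The classes of transcript were uneven between the directions. Protein-coding genes had 741 higher and 382 lower of 17045, and pseudogenes, whose probes can also match a parent gene, had 238 higher and 18 lower of 3959. Small nucleolar RNAs had 2 higher and 36 lower of 890, small nuclear RNAs had none higher and 14 lower of 822, and long noncoding RNAs had 3 higher and 29 lower of 2889. Over all clusters 3.69% were higher and 1.92% lower. The lower calls of small nuclear and long noncoding RNAs were no larger a share than that 1.92%, and their higher calls were fewer than 3.69%. The median change of the 5222 negative control probe sets was -0.06 and that of the 1324 positive controls 0.08, and the part of this shift in the split between classes was not tested.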

How the data were processed

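RNA of 18 mammary samples was read on Affymetrix mouse whole-transcript arrays. The deposited log2 values were made by the authors with RMA (background correction, quantile normalization, median polish); the labels list Affymetrix Expression Console, Partek and RMA as tools and give no versions. Quantile normalization hides a difference in total RNA per cell. Of 65535 entries 27309 were transcript clusters with 1 symbol (27030 genes, the cluster with the highest mean standing for a gene). Apart from 2 entries, autosomes beyond 16 were not analysed here. The 12 arrays alone, grouped by title, were fitted with limma 3.58.1 (R 4.3.3), two-sided, with Benjamini-Hochberg adjustment over 27309 clusters and calls at an adjusted p under 0.05. In simulated data for this comparison (27309 genes), 80 of 100 log2 shifts of 0.5 were recovered, as were 99 of 100 shifts of 1, beside 16 false calls. Array measures were compared by exact permutation over all splits in Python 3.11.15, and ranks for the area under the curve came from scipy 1.17.1. With 6 arrays a group, precision is set by their number. The members and the gene lists were chosen with earlier results of these data known. Genes named are the 12 largest rises and 12 largest falls among called clusters without overlap and above detection. Segments, predicted genes, small RNAs and pseudogenes were left out of these. Up to 4 called genes of a list, further members needed to account for it, and fixed markers are named too. Others are marked as chosen after their values were seen. Promoters are from RefSeq (GRCm38.p6). Alternatives were a fit on all 18 arrays, a replicate block, other scales and variance settings, and leaving out single arrays. Omitting hyperplastic 3 and 4, and the quality covariate, were chosen after seeing the data.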

Additional observations from a re-analysis of the deposited data

Results flagged for a closer look

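In 10 of 170 groups of 6 arrays tested, 1 array lay farther from its neighbours than Dixon's 95% limit for 6 values allows, and chance gives about 1 in 20 groups. Hyperplastic 3 stood above the other hyperplastic arrays in the epidermis score (2.246) and the neutrophil score (1.075), and hyperplastic 2 below them in the mast cell score (-0.726). Normal 1 stood below the other normal arrays in the scores of T cells (-0.632), cytotoxic cells (-0.218) and immunity-related GTPases (-0.464), and in Cd3e (8.29) and Igtp (7.62). Normal 3 was lowest in the Cd209 lectin score (0.138), still above every hyperplastic array, and normal 6 was highest in the erythrocyte score (0.077).

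Outside the named genes, the same test across 29537 transcript clusters without a symbol gave 78 higher and 926 lower in hyperplastic than in normal glands (3.4%), and across 1957 clusters with several symbols it gave 67 higher and 27 lower. Among 5222 negative control probe sets none was called by limma, with 448 at an unadjusted p under 0.05.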

How the results depend on the processing

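Against 1009 higher and 525 lower clusters, the counts were 277 and 179 with the spread taken from all 18 arrays, 287 and 2574 when arrays were centred on reference genes, 1716 and 909 with array weights, 849 and 575 with a replicate block, 464 and 404 without hyperplastic 3 and 4, 110 and 148 with the quality measure as a covariate, and 4 and 3 by the methods' rule (log2 change over 2, unadjusted p). Leaving out 1 array gave 491 to 1271 higher and 290 to 630 lower. The higher count moved by over 1.5 times without normal 1 (491), normal 3 (581) or hyperplastic 4 (635), and the lower count without normal 1 (290), normal 3 (333), hyperplastic 3 (339) or normal 5 (346). The first principal component separated the groups in every fit without 1 array. The difference in spread was 7.11 to 11.4 without 1 array, past the threshold no longer without hyperplastic 3 or normal 1, 2, 3 or 4, and 5.132 (exact permutation p = 0.266) when centred on reference genes. The difference in the quality measure was 0.008431 to 0.01369, with exact permutation p up to 0.0931. The cause was not tested. The deviations of same-numbered arrays correlated at -0.081 to 0.249, and 2 of 6 arrays correlated best with their own number. So few and weak correlations cannot decide whether the numbers pair the samples.

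Of 120 named genes with a call, 70 lost it with the quality measure as a covariate and 68 with the spread taken from all 18 arrays. No named gene with a call turned direction in the settings tried, and those that turned had none. Centred on reference genes these were Hdc (-0.099) and Krt18 (-0.007). Without hyperplastic 3 and 4 they were Hdc (-0.253), Krt1 (-0.242) and Ptprc (0.018), and with the quality measure Hdc (-0.018), Csn3 (0.143) and Ptprc (0.135). Without 1 array the ranges were -0.041 to 0.31 for Cd3e, -0.287 to 0.149 for Csn3, -0.082 to 0.008 for Erbb2, -0.18 to 0.147 for Hdc, -0.241 to 0.936 for Krt1 and -0.212 to 0.023 for Ptprc.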
